A study of Zea mays with 2 samples.

Results

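The genes described here encode the proteins of the cytosolic ribosome in maize (Zea mays) endosperm, the storage tissue that fills most of the kernel. Of 33283 genes listed, 204 were chosen because their description in the deposited tables names a 40S or 60S ribosomal protein, acidic ones included. They comprised 86 genes of the 40S subunit and 118 of the 60S subunit, and the choice used no measured value. Endosperm RNA was sequenced at 15 days after pollination from dek33 kernels, a defective kernel mutant, and from wild type kernels. The dek33 gene is known to encode a pyrimidine reductase of riboflavin synthesis, and the sources used here do not name the allele. The design was in triplicate per the labels, but the tables hold 1 value per gene and genotype. There is therefore no replicate check and no test, and "in dek33" and "in wild type" refer below to 2 single libraries, not to the genotypes at large. Separate copies of 1 protein are called paralogs below, by name alone.

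The cytosolic ribosome translates nuclear-encoded messengers. Its small 40S subunit reads the messenger, and its large 60S subunit joins amino acids and lets the new chain out through an exit tunnel. Each ribosomal protein is needed in about equal number per ribosome, apart from the acidic P proteins, which form a stalk in several copies that draws translation factors to the 60S subunit. Plant genomes carry several genes for most of these proteins, and their messengers are abundant in growing cells and in tissue that makes much protein, such as filling endosperm. Ribosome building in plants is promoted by the TOR kinase, which acts on the S6 kinase and through it on protein S6 of the 40S subunit.

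Levels are in FPKM, fragments scaled for transcript length and library size, as the authors deposited them. The median gene with at least 1 FPKM in 1 or both libraries had a higher value in dek33 by a log2 ratio of 0.44, a factor of 1.36. Ratios are therefore given as centred log2 ratios, dek33 over wild type with 1 FPKM added to each value and that shift of 0.44 subtracted, unless deposited values are named. Counts of higher and lower genes use a limit of 2-fold on this scale among genes with at least 5 FPKM in 1 or both libraries. Total FPKM was 761571 in dek33 and 672660 in wild type, zeins made up 16.7% and 31.2% of these sums, and the number of reads is unknown. Zeins and other endosperm markers were abundant in both, with 137267 FPKM over 26 markers in dek33 and 218255 in wild type, where 3 zeins were listed at 0. Of the 25 endosperm markers with at least 5 FPKM, 15 were lower in dek33 and 3 higher. All 10 embryo markers (oleosins, globulins and EMB564) were lower in dek33, with a sum of 593 FPKM against 9288 in wild type and none at 0. Of 7 basal transfer layer markers with at least 5 FPKM, 5 were lower and 0 higher, and the 8 listed summed to 511 FPKM in dek33 and 1066 in wild type, with none at 0. The 2 aleurone markers summed to 793 FPKM in dek33 and 672 in wild type. The part of these tissues in the results below was not tested, and in bulk RNA fewer cells of a type and less RNA per cell cannot be told apart.

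Ribosomal protein genes as a group had moderately higher values in dek33, and few of them by much. Together they had 30234 FPKM in dek33 and 17144 in wild type, a 1.76-fold difference before centring. They made up 3.97% of all FPKM in dek33 and 2.55% in wild type, or 4.76% and 3.71% when zeins were left out. Of the 204 genes, 196 had at least 5 FPKM in 1 or both libraries, and none was listed at 0. By deposited values 193 of these 196 had a higher FPKM in dek33. So did 12043 of all 14348 genes with at least 5 FPKM in 1 or both libraries.

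Over the 196 genes the median centred log2 ratio was 0.39, with quartiles of 0.22 and 0.61. The median over all 14348 genes with at least 5 FPKM was 0.08, with quartiles of -0.24 and 0.38. The ribosomal protein genes thus lay above the median of all genes and closer together, with an interquartile range of 0.39 against 0.62 for all genes. A centred ratio above 0 was found for 178 of the 196, while 56.9% of all genes had one.

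Most of the difference stayed inside the 2-fold limit. Centred, 5 of the 196 genes were higher by 2-fold and 0 lower, beside 4.40% higher and 6.79% lower among all genes, so 2-fold differences were no more frequent than among all genes. By deposited values 59 were higher and 0 lower, beside 14.8% and 4.02% of all genes. At a limit of 1.5-fold after centring, 52 were higher and 3 lower, beside 13.8% and 12.5% of all genes. The scatter of FPKM in both libraries shows the group as a narrow band.

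**Figure D1:**
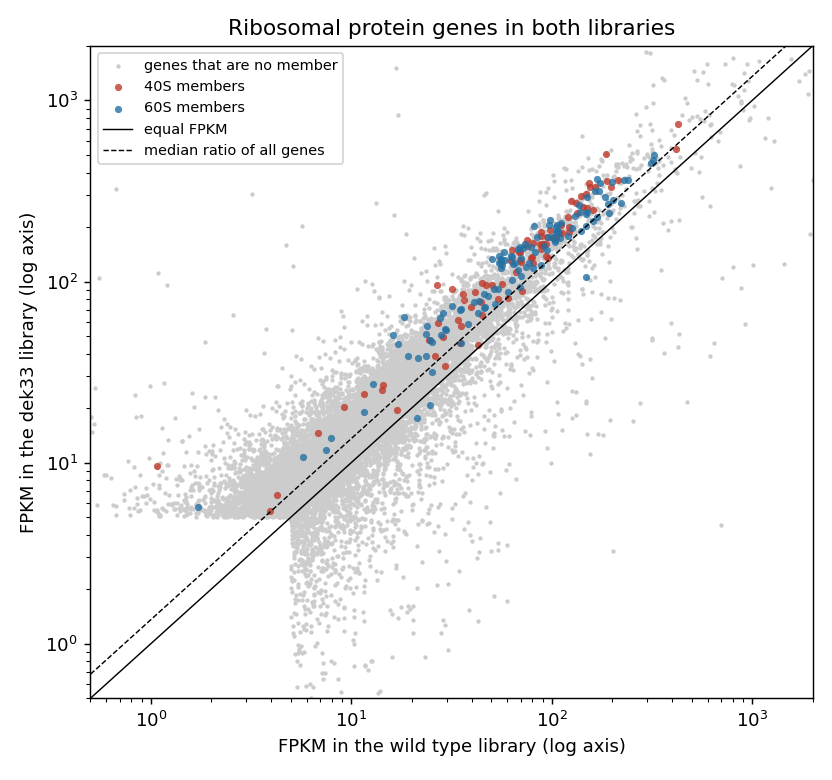
FPKM of each gene in dek33 (vertical, log axis) against the wild type library (horizontal, log axis), for genes with at least 5 FPKM in 1 or both, with points outside the axes not drawn. Red and blue points are 40S and 60S genes. The solid line marks equal FPKM, and the dashed line the 1.36-fold median ratio of all genes with at least 1 FPKM. Above the solid line lie 193 of 196 ribosomal protein genes, and 12043 of all 14348 genes have a higher FPKM in dek33.

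Because ribosomal protein genes are abundant, they were also set beside other genes of like level. Of the 204, 151 had a mean FPKM of both libraries from 50 to under 500. These 151 had a median centred log2 ratio of 0.38 and an interquartile range of 0.38. The 1621 other genes at that level had a median of 0.22 and an interquartile range of 0.65, and 67.3% of them lay above 0, against 94.0% of the ribosomal protein genes. So other genes of this level were also shifted upward relative to all genes, by less and with more spread. The share at 1.5-fold or more was 27.2% of the 151 genes and 20.4% of the 1621.

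The order of the genes by level was nearly the same in both libraries. Across the 196 genes, log2 FPKM in dek33 and in wild type had a Pearson correlation of 0.96 and a Spearman correlation of 0.97, across genes that share the same libraries and are not replicates. Sorted by mean FPKM, the lowest 66 genes (3.70 to 71.4 FPKM) had a median centred ratio of 0.40, the next 65 one of 0.44 and the highest 65 (138 to 583 FPKM) one of 0.37. The lowest 66 spanned ratios of -0.69 to 1.91 and the highest 65 only -0.15 to 1.00.

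The 40S and 60S genes differed little in their medians. The median centred log2 ratio was 0.41 over 82 genes of the 40S subunit, with quartiles of 0.29 and 0.61. It was 0.37 over 114 genes of the 60S subunit, with quartiles of 0.19 and 0.60. The difference of 0.03 is small beside these spreads. Among genes with a mean of 50 to under 500 FPKM the medians were 0.43 over 63 genes of the 40S subunit and 0.37 over 88 of the 60S subunit, with 31.7% and 23.9% at 1.5-fold or more. Centred, 3 of 82 genes (3.66%) of the 40S subunit and 2 of 114 (1.75%) of the 60S subunit were higher by 2-fold, and none was lower in either. Among all genes 4.40% were higher and 6.79% lower. At 1.5-fold, 23 and 29 genes were higher and 0 and 3 lower, beside 13.8% higher and 12.5% lower among all genes. In dek33 40S genes carried 43.2% of ribosomal protein FPKM, and in wild type 41.6%. The 3 genes with lower deposited FPKM in dek33 all belonged to the 60S subunit, namely a pair described as L18A and the gene of P2B.

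**Figure D2:**
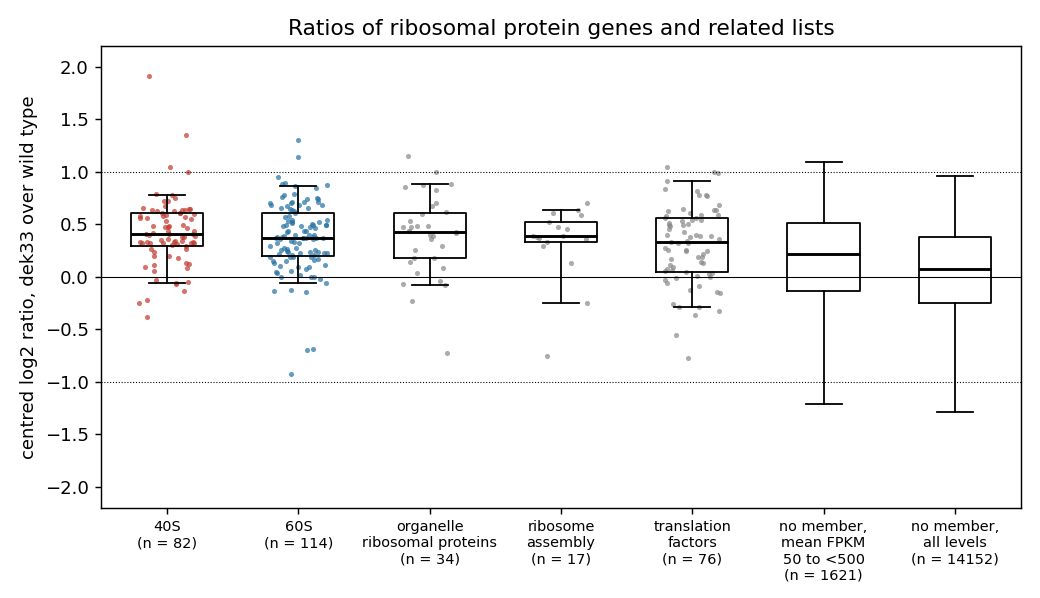
Centred log2 ratio, dek33 over wild type, for 40S and 60S genes, related lists and genes outside the ribosomal protein set, all with at least 5 FPKM in 1 or both libraries. Points are genes, boxes span the quartiles with the median as a line, whiskers span the 5th to 95th percentile, and dotted lines mark 2-fold; the 40S and 60S medians are 0.41 and 0.37.

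Other lists tied to protein synthesis had medians close to that of the ribosomal protein genes. Ribosomal proteins of plastids and mitochondria, matched by the 50S and 30S names, had a median of 0.43 over 34 genes, with 2 higher by 2-fold and 0 lower. Ribosome assembly and nucleolar proteins, which process ribosomal RNA and build the subunits, had a median of 0.39 over 17 genes, with 0 higher and 0 lower. Translation initiation and elongation factors had a median of 0.33 over 76 genes, with 3 higher and 0 lower. These medians all lay above the 0.08 of all genes, of which 4.40% were higher and 6.79% lower by 2-fold. The S6 kinase gene (GRMZM2G080001) stood at 45.5 FPKM in dek33 and 46.7 in wild type, a centred log2 ratio of -0.48. It was the only kinase that the word list for TOR and S6 kinase found, and the other 7 genes it took in were unrelated, so no median is given for that list.

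Summed over paralogs, the proteins spanned a narrower range of ratios than the single genes. The ratio of a sum lies between those of its paralogs, so this follows from the summing and says nothing further about the proteins. The 204 genes carried 71 protein names, and 69 of these reached 5 FPKM in sum, 29 in the 40S and 40 in the 60S subunit. P2A and P2B, both forms of P2, were counted under separate names. Protein sums had a median of 427 FPKM in dek33, from 20.8 for P2B to 1100 for S8. In wild type the median was 246 FPKM, from 24.8 for P2B to 655 for S8. The median centred log2 ratio of the sums was 0.40 for 40S and 0.39 for 60S proteins. The sums ran from -0.68 to 0.79, against -0.92 to 1.91 for single genes. No protein sum passed 2-fold in either direction, and 64 of 69 lay above 0.

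**Figure D3:**
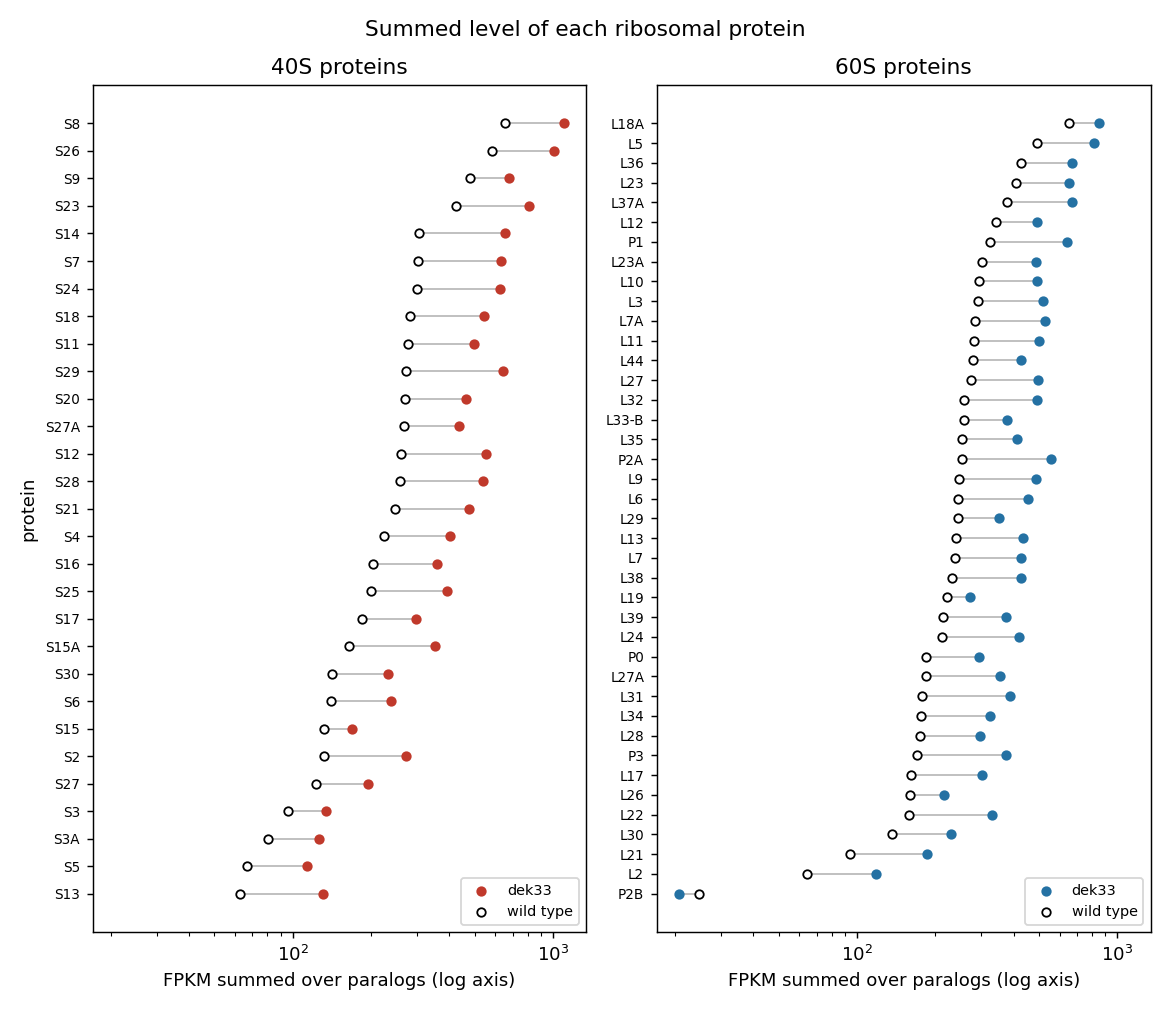
FPKM summed over the paralogs of each 40S and 60S protein (horizontal, log axis), filled for dek33 and open for wild type, with proteins sorted by their wild type sum. Of the 69 protein names, P2B alone has a lower sum in dek33, at 20.8 against 24.8 FPKM. It is a single gene, counted apart from the P2A genes.

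P2A and P3 of the P stalk had the highest protein sum ratios of the 60S subunit, 0.70 and 0.69, while P0 and P2B stood lower. P0, which anchors the stalk on ribosomal RNA, had 294 FPKM in dek33 and 185 in wild type from a single gene (GRMZM2G066460), a centred log2 ratio of 0.23. P1, P2 and the plant-specific P3 are the small acidic proteins that bind to P0 and reach out to elongation factors. The P1 genes GRMZM2G032315 and GRMZM2G157443 had 352 and 292 FPKM in dek33, against 174 and 149 in wild type, with ratios of 0.57 and 0.52. The locus of GRMZM2G032315 overlaps that of another gene. P3 came almost wholly from GRMZM2G077208, with 367 FPKM in dek33 and 168 in wild type, a ratio of 0.68. The other P3 gene, GRMZM2G378770, had 5.68 and 1.71 FPKM. Both P1 genes and the main P3 gene thus lay further above the median of all genes than their anchor P0.

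P2 was split between a set of higher genes and a lower one. The P2A genes GRMZM2G119809 and GRMZM2G075630 had 206 and 202 FPKM in dek33, against 96.6 and 81.9 in wild type, with ratios of 0.64 and 0.85. GRMZM2G105712 and GRMZM2G010257, also P2A, had 85.1 and 62.6 FPKM in dek33, against 45.9 and 27.7 in wild type. A further P2A gene, GRMZM2G160517, stayed at 0.062 FPKM in dek33 and 0.12 in wild type. The single P2B gene, GRMZM2G114954 (chromosome 8, 98106249 to 98110627, B73 RefGen_v3), ran against these with 20.8 FPKM in dek33 and 24.8 in wild type, a ratio of -0.68.

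Among proteins that handle the messenger on the 40S subunit, both levels and ratios varied. These proteins, like the L5 and L11 pair below, were picked for their known roles with values already seen, except where the naming rule gave the gene. S26, which lies at the messenger's exit channel, held the most abundant gene of the whole set, GRMZM5G827266, at 740 FPKM in dek33 and 425 in wild type, a ratio of 0.36. S9, near the messenger's entry channel, held the next, GRMZM2G108348 (chromosome 3, 135622399 to 135624833), at 542 and 416 FPKM, a ratio of -0.06. The neighbouring protein S3, from GRMZM2G099352, had 135 FPKM in dek33 and 95.6 in wild type, a ratio of 0.05. The remaining S9 genes lay higher, so that S9 as a whole had 679.5 FPKM in dek33 and 480.0 in wild type, a ratio of 0.06. S6, the target of the S6 kinase, summed to 238 FPKM in dek33 and 141 in wild type, a ratio of 0.31, and its paralogs differed as given below.

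In the 60S subunit, L5 and L11 bind the 5S ribosomal RNA and enter the ribosome with it. L5 summed to 812 FPKM in dek33 and 492 in wild type, a ratio of 0.28, and this sum takes in a gene described as mitochondrial L5. Its main gene, GRMZM5G815894, had 497 and 322 FPKM, a ratio of 0.18. L11 summed to 501 FPKM in dek33 and 281 in wild type, a ratio of 0.39. Over all protein sums the median was 0.39 and the lower quartile 0.26, so L11 stood at the median and L5 nearer the lower quartile. The main L5 gene lay below 0.22, the lower quartile of the single genes. The most abundant gene of L36, GRMZM5G850966, had 467 FPKM in dek33 and 319 in wild type, a ratio of 0.11.

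At the low end of the protein sums stood P2B, L19, S15, L18A and L26, whose ratios were at or below 0. L19, which forms bridges to the 40S subunit, had 272 FPKM in dek33 and 222 in wild type from its single listed gene (GRMZM5G887054), a ratio of -0.15. S15, in the head of the 40S subunit, had both paralogs below 0, the only protein with 2 or more genes for which this held, and GRMZM2G102075 had 88.2 FPKM in dek33 and 71.2 in wild type. L26 had a ratio of -0.004, at the median of the genes used for centring, with 217 FPKM in dek33 and 160.0 in wild type. By deposited values, L19, S15, L18A and L26 were still higher in dek33. Places near 0 also depend on the pseudocount. With one of 5 FPKM, the L19 gene and S15 GRMZM2G102075 each had a centred ratio of 0.03, just above 0. The sums of L19 and L26 hold only genes described with the subunit. Outside the rule, 16 genes with at least 5 FPKM are described as a ribosomal protein without one, and their compartment was not tested. Among these, GRMZM2G116135 and GRMZM2G146358 (L19) had 175 and 113 FPKM in dek33, against 111 and 57.4 in wild type, with ratios of 0.21 and 0.52, and GRMZM2G327564 (L26) had 120.2 and 68.7 FPKM, a ratio of 0.36. The low place of L19 and L26 thus rests on 1 gene each.

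In most proteins with several genes, the centred log2 ratios of the paralogs spanned less than 0.5. Whether paralogs lay closer together than ribosomal protein genes of different names was not tested. For 60 proteins at least 2 genes reached 5 FPKM, and the median range of centred log2 ratios within a protein was 0.43, with 0.36 for 40S and 0.45 for 60S proteins. In 37 of the 60 the range was under 0.5, and in 5 it was over 1. All paralogs lay above 0 in 50 proteins, and in 9 they lay on both sides of it. Genes of near-identical sequence can exchange reads, so a split between such copies is uncertain and the protein sum is less affected by it.

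**Figure D4:**
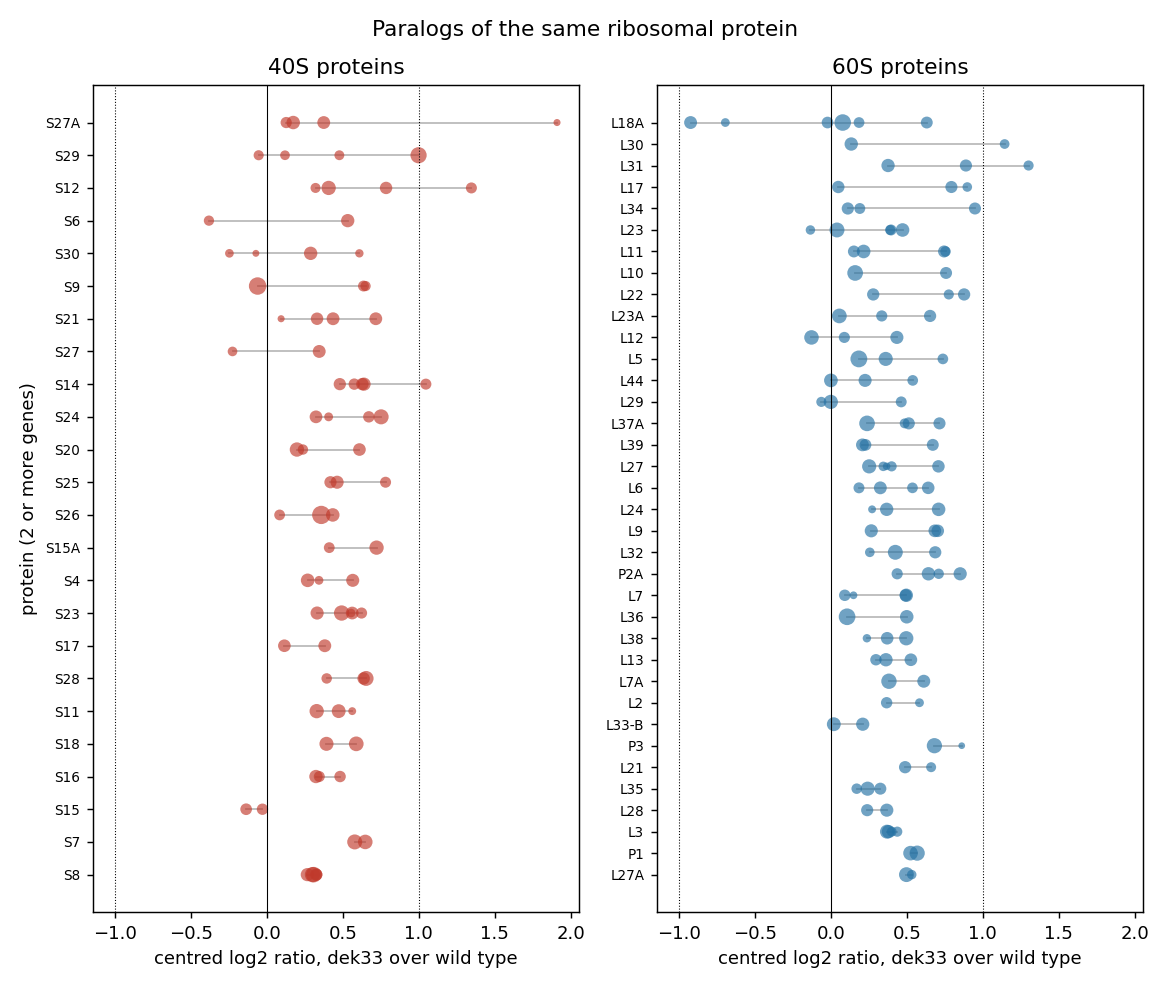
Centred log2 ratio, dek33 over wild type, of each gene (points, larger for a higher mean FPKM) for proteins with at least 2 genes at 5 FPKM or more, sorted by the range within a protein. Dotted lines mark 2-fold; L27A and S8 are the tightest in their subunits, while S27A and L18A span 1.78 and 1.55.

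Some of the tightest sets, those of S8 and L3, held copies that sit next to each other. Others did not. The genes of L27A, the tightest, lie on chromosomes 5 and 7, those of P1 on 4 and 6, and those of S7 on 1 and 9. Among neighbours S8 is the clearest, with 5 genes inside 479 kb of chromosome 4 (232843893 to 233322937) whose ratios ran from 0.27 to 0.33. Together they had 1100 FPKM in dek33 and 654 in wild type. The other 3 genes described as S8 stayed below 0.5 FPKM in both libraries. The 3 S14 genes within 267 kb of chromosome 6 (90208969 to 90475658) had ratios of 0.48 to 0.64. The pairs of L3 genes on chromosome 2 had 0.37 to 0.38 and 0.40 to 0.44. Neighbouring pairs of L6 and P2A genes lay further apart, at 0.33 and 0.64 for L6 and 0.44 and 0.64 for P2A. A pair of L27 genes, GRMZM2G366077 and GRMZM6G772588, is printed with the same locus, so their separate values are uncertain. In all, 20 genes fell into 8 such groups of the same protein with gaps of at most 1 Mb.

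L18A had the widest range among the neighbours and among the 60S proteins. It took in 6 genes, 2 described as L18A and 4 as L18a, a difference of letter case that the grouping ignored. The genes described as L18A were the lowest of the whole set. GRMZM2G021877 (chromosome 8, 69971438 to 69973356) had 106 FPKM in dek33 and 149 in wild type, a ratio of -0.92. GRMZM2G100349 (chromosome 3, 9947674 to 9952728) had 17.6 and 21.2 FPKM, a ratio of -0.69. Both thus had less FPKM in dek33 even before centring. Of the genes described as L18a, GRMZM2G113720, in the same 58.0 kb stretch of chromosome 8 as GRMZM2G021877, had 119 FPKM in dek33 and 56.0 in wild type, a ratio of 0.63. AC230013.2_FG007, the most abundant, had 450.2 and 314 FPKM, a ratio of 0.08. GRMZM2G022619 and GRMZM2G126928 had ratios of 0.19 and -0.02. Neighbouring genes of similar name thus lay on opposite sides of the median.

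S27A, which is made as a fusion with ubiquitin, had the widest range of the 40S subunit because of 1 low gene. GRMZM5G877815 (chromosome 1, 228626481 to 228627227) had 9.58 FPKM in dek33 and 1.07 in wild type, a ratio of 1.91, the highest of the 196. Its wild type value is near the pseudocount of 1 FPKM, on which the ratio and its rank depend. The ratio was 2.52 with a pseudocount of 0.1 and 1.00 with one of 5, where S12 GRMZM6G741620 had 1.39. GRMZM2G357296, GRMZM2G431821 and GRMZM2G006293 had 187, 159 and 80.2 FPKM in dek33, against 122, 89.8 and 53.7 in wild type. Their ratios of 0.17, 0.38 and 0.13 lay near or below the median of the set. The low gene thus added little to the protein, which summed to 436 FPKM in dek33 and 266 in wild type, a ratio of 0.27.

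S29 and S12 differed from S27A in that abundant genes took part. S29, a small zinc-binding protein of the 40S head, had the highest protein sum ratio, 0.79, with 641 FPKM in dek33 and 272 in wild type. GRMZM2G165208 (chromosome 4, 4758093 to 4759848) alone had 509 FPKM in dek33 and 187 in wild type, a ratio of 0.999, just inside the 2-fold limit. GRMZM2G305154, GRMZM2G165619 and GRMZM2G060373 had 47.3, 38.9 and 45.9 FPKM in dek33, against 24.6, 26.1 and 34.8 in wild type, with ratios of 0.48, 0.12 and -0.05. The high ratio of S29 thus belonged to its main gene, whose share of the protein was 79.4% in dek33 and 68.6% in wild type.

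All 4 paralogs of S12, another protein of the 40S head, lay above 0. GRMZM6G741620 (chromosome 8, 102023146 to 102025116) had 95.2 FPKM in dek33 and 26.9 in wild type, a ratio of 1.35. GRMZM2G132929 had 149 and 63.2 FPKM, a ratio of 0.79. GRMZM2G063340, the most abundant, had 257 and 143 FPKM and a ratio of 0.41, and GRMZM2G139900 had 49.2 and 28.6 FPKM and a ratio of 0.32. The paralogs thus differed in size of the difference and not in its direction.

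L30 and L31 had their 2-fold higher genes among the less abundant paralogs. For L30, a protein that in yeast also binds its own messenger, GRMZM2G027728 (chromosome 8, 2349748 to 2352938) had 50.4 FPKM in dek33 and 16.2 in wild type, a ratio of 1.14. Its main gene, GRMZM2G044137, had 179 and 120.1 FPKM, a ratio of 0.13. For L31, at the mouth of the exit tunnel, GRMZM2G011253 (chromosome 4, 163668807 to 163670794) had 63.8 FPKM in dek33 and 18.4 in wild type, a ratio of 1.30. The share of the main L31 gene was 48.0% of the protein in dek33 and 59.1% in wild type. The third L31 gene, GRMZM2G074085, had 138 and 54.5 FPKM, a ratio of 0.89. In both proteins the genes other than the main one thus took a larger part in dek33.

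The remaining genes at the upper end came from S14, L34 and L17. S14, in the platform of the 40S subunit, had GRMZM2G069762 at 90.9 FPKM in dek33 and 31.8 in wild type, a ratio of 1.05, which lay just inside the 2-fold limit at 0.995 with a pseudocount of 0.1 and at 0.98 by trimmed mean of M values. L34 had GRMZM2G032564 at 134 and 50.5 FPKM, a ratio of 0.95, and L17, which lines the exit tunnel, had GRMZM2G119169 at 44.9 and 17.2 FPKM, a ratio of 0.90. S14 is the last of the 5 genes past 2-fold, after those of S27A, S12, L31 and L30, and the genes of S29, L34 and L17 lie just inside it.

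The remaining genes at the lower end were paralogs of S6, S30 and S27, all of the 40S subunit. S6 GRMZM2G054136 (chromosome 7, 166416769 to 166429948) had 44.5 FPKM in dek33 and 42.6 in wild type, a ratio of -0.38. The main S6 gene, GRMZM5G851698, had 193 and 98.0 FPKM, a ratio of 0.53. S30 GRMZM2G054012 had 19.4 and 16.8 FPKM, a ratio of -0.25, and S27 GRMZM2G377600 had 34.1 and 29.2 FPKM, a ratio of -0.23. Each of the 3 had nearly the same or a slightly higher deposited FPKM in dek33 and came out below 0 through the centring.

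Over the 60 proteins with several genes, the most abundant paralog by mean FPKM took a median of 53.3% of the protein in dek33 and 54.6% in wild type. Its share was lower in dek33 for 42 proteins and higher for 18. The split was 30 lower and 6 higher among 36 proteins of the 60S subunit, and 12 lower and 12 higher among 24 of the 40S subunit. No test of this difference between subunits was made, since genes are not replicates. The share moved by over 5 percentage points in 23 proteins and by over 10 in 5. For L17 the main gene took 41.0% in dek33 and 54.6% in wild type, and for S6 it took 81.3% and 69.7%.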

How the data were processed

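Both tables list the same 33283 genes with FPKM values that the authors deposited, 1 per gene and genotype. The submitters' processing notes name Bowtie 0.12.2 and the build B73 RefGen_v3. The program behind FPKM, the annotation, the filters and how triplicates were pooled are not stated there or in the tables. FPKM holds no read counts, so depth is unknown and no counting interval is given. A value of 1e-05 stands for 0. Samples were grouped by the genotype label. Coordinates are those of the tables, with starts raised by 1, since that gives a length divisible by 3 for 77.9% of 610 predicted models under 1000 bases, and the listed start for 10.7%. Of the 204 genes, 16 have a locus that overlaps another gene's, 4 have descriptions that name mitochondria (2 of them with at least 5 FPKM), and 177 matched, by ID, RefSeq genes of assembly NAM-5.0. Sequences and promoter motifs were not analysed here.

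Ratios used a pseudocount of 1 FPKM, which understates the difference of low genes, and were centred on the median of 21688 genes with at least 1 FPKM. Protein names were read from the text after "ribosomal protein", without case or a trailing isoform number. Named genes were the 8 highest and 8 lowest ratios, the 6 most abundant genes, all stalk and S27A genes, and all paralogs of the 5 widest proteins. Genes and lists were chosen with earlier results of these data known. The alternatives were other pseudocounts, filters, scalings, limits and member sets. The ratio and call step was tested on simulated data. Software was matplotlib 3.10.9, scipy 1.17.1, pandas 2.3.3 and numpy 2.4.6 under Python 3.11.15.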

Additional observations from a re-analysis of the deposited data

How the results depend on the processing

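No paired analysis was possible because there is only 1 sample per genotype, and likewise no replicate could be left out. A median was taken to have moved when it left its exact binomial interval over genes, and a count when it changed by over 1.5 times. The median of the ribosomal protein genes stayed above 0 in every setting run, but 0 is not the median of all genes tested. Among all genes with at least 5 FPKM the median was 0.08 in the main setting and 0.52 by deposited values. For the other settings the median of all genes is not given. The median of the ribosomal protein genes was 0.33 with a pseudocount of 0.1 (60S 0.30) and 0.52 with one of 5 (40S 0.53, 60S 0.52). It was 0.83 by deposited values (40S 0.85, 60S 0.81) and 0.32 by trimmed mean of M values (60S 0.30). The trimmed mean factor was 1.43 and the factor without zeins 1.37, beside 1.36 for centring. The difference of the 40S and 60S medians lay between 0.01 and 0.04 in all settings. The 5 higher ribosomal protein genes became 8 with a pseudocount of 5, 59 by deposited values, 52 at a 1.5-fold limit and 0 with 1 value per protein, and the 0 lower ones became 1 with a pseudocount of 0.1 and 3 at 1.5-fold. Over all genes, 632 higher and 974 lower became 390 and 554 with a pseudocount of 5, 336 and 369 at 20 FPKM (fewer genes tested), 2118 and 577 by deposited values and 1973 and 1790 at 1.5-fold, and 2021 were lower without a filter. The cause was not tested where the construction of a setting does not show it. Leaving out members named mitochondrial or with overlapping loci, both chosen after seeing the data, or members listed at 0 (there were 0) moved none of these values. Of 43 named genes none changed sign past the limit. S14 GRMZM2G069762 was just inside it with a pseudocount of 0.1 (0.995) and by trimmed mean (0.98). L18A GRMZM2G021877 (-1.005) and P3 GRMZM2G378770 (1.16) came to pass it with a pseudocount of 0.1, and S29 GRMZM2G165208 (1.16) and L34 GRMZM2G032564 (1.06) with one of 5, as did 11 named genes by deposited values and 13 at 1.5-fold. Near 0, signs did change with a pseudocount of 5. L19 GRMZM5G887054 and S15 GRMZM2G102075 (both 0.03) then lay above 0. So did S29 GRMZM2G060373 (0.09), S9 GRMZM2G108348 (0.12) and L18A GRMZM2G126928 (0.14). The other named genes below 0 stayed below it. Unknown depth limits what the low genes show.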

Other observations

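The 204 ribosomal protein genes lie on all 10 chromosomes, from 10 on chromosome 10 to 29 on chromosome 4. The median centred log2 ratio of those with at least 5 FPKM was 0.62 for the 16 on chromosome 9 and between 0.33 and 0.46 on each of the other chromosomes. No median over all genes of a chromosome was taken, so whether other genes of chromosome 9 differ likewise was not tested. The 8 genes below 5 FPKM in both libraries were 3 of S8, both genes described as mitochondrial L16, and 1 each of S14, P2A and L7/L12. The highest of them, S14 GRMZM5G882378, had 1.24 FPKM in both libraries. L7/L12 GRMZM2G311914, whose name is that of a bacterial-type stalk protein, had 1.08 FPKM in dek33 and 0.40 in wild type.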
